A study of Homo sapiens with 17 samples.

Results

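Histone H2A.Z replaces canonical H2A in a minority of nucleosomes and is best known at promoters and enhancers. In vertebrates it is made from a pair of genes as the isoforms H2A.Z.1 and H2A.Z.2, which are nearly identical proteins. Intergenic deposits far from any protein-coding gene are of interest because distal enhancers, promoters of long noncoding RNAs (lncRNAs) and genes of small RNAs lie there. This account describes 6073 such far intergenic regions, 12.9% of the 47107 regions that tagged H2A.Z occupied in at least 1 of 8 ChIP-seq peak lists. Each list was first shortened, by −log10 p, to as many intervals as the shortest of them held. Overlapping intervals of the 8 lists were merged, and a region was kept here if it lay outside every protein-coding gene body and at least 50 kb from the nearest protein-coding gene end (hg38 coordinates, RefSeq genes of GRCh38.p14). The other regions were 15274 within 1 kb of a gene end, 12327 inside gene bodies and 13433 between genes at 1 to 50 kb. The gene table carries no strand, so starts and ends of transcription are not told apart.

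The cells were Caco-2/15, a line from a human colon carcinoma whose cells come to resemble absorptive enterocytes once confluent. All of them carried a Flag tag, placed by CRISPR-Cas9 on 1 allele of H2AFZ (now H2AZ1, encoding H2A.Z.1) or of H2AFV (now H2AZ2, encoding H2A.Z.2). Anti-Flag precipitations came from subconfluent (Sc) cells or from cells 7 days postconfluent (Pc). The 4 groups are called Z1 Sc, Z1 Pc, Z2 Sc and Z2 Pc, each with experiments Exp1 and Exp2. The heterozygous tag reports 1 allele of 1 isoform, and the labels do not say how many clones each line stands for. The labels do not say whether the experiments were separate cultures, so every p-value measures the spread between these libraries, which may be technical. The peak names begin with 1 of 3 identifiers, shared by the Z1 Exp1 lists, by the Z2 Exp1 lists and by all 4 Exp2 lists. The labels do not say what an identifier stands for. If it marks a batch, isoform and batch cannot be told apart in Exp1, while each identifier covers both states. Whole lists held up to 79425 intervals. The shortest, Z2 Sc Exp2, was used whole, down to a −log10 p of 5.19 against 9.99 to 16.8 elsewhere. As a check of the cell type, 6 of 15 markers of intestinal epithelium (CDX1, CDX2, HNF4A, CDH1, GATA6 and ELF3) had an interval at a gene end in all 8 lists, while CDH17, KRT20 and KLF5 were among those with none in any list. Of 8 enterocyte markers 3 were in all 8 lists, and SI, LCT, FABP1 and FABP2 were in none. Of the blood markers 1 of 5 and of the fibroblast markers 1 of 6 were in all 8 lists, and of the endothelial and neuronal markers 0 of 4 each.

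Promoters of lncRNA genes show how occupied and unoccupied far intergenic sequences differ. Members with no annotated gene are not covered by them. Shown here are 3 promoters at members among the strongest at lncRNA genes, then 1 from a region in the shortened subconfluent lists only, 1 from a region in the shortened postconfluent lists only, and 1 that no list occupied. Each runs from 250 bases before to 50 after the annotated start (RefSeq, GRCh38.p14), 5′ to 3′ on the gene's strand, with the CpG dinucleotides in capitals. LINC03124 is at chr2:131682249-131682548 (+), LINC01012 at chr6:27693785-27694084 (+), THORLNC at chr2:118186337-118186636 (−), LOC105373480 at chr2:740636-740935 (+), LOC124902635 at chr11:13114825-13115124 (+) and CASC18 at chr12:105703953-105704252 (+).
LINC03124: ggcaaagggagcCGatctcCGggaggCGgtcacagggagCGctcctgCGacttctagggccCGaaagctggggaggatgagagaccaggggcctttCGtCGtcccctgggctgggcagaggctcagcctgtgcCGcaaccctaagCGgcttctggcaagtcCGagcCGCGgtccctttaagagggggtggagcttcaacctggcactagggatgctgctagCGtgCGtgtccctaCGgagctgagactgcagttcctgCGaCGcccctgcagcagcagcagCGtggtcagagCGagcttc
LINC01012: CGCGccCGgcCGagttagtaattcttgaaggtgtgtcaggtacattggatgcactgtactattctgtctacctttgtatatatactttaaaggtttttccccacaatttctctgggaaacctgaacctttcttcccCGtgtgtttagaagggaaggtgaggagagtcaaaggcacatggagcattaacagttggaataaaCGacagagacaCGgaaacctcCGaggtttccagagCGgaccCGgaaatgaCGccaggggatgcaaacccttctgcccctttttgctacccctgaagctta
THORLNC: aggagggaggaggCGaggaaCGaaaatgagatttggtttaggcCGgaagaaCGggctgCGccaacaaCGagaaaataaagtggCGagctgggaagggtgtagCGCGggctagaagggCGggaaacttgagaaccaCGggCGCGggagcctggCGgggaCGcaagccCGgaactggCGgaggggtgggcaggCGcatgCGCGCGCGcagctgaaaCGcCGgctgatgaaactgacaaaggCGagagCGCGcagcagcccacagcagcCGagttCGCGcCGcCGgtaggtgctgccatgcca
LOC105373480: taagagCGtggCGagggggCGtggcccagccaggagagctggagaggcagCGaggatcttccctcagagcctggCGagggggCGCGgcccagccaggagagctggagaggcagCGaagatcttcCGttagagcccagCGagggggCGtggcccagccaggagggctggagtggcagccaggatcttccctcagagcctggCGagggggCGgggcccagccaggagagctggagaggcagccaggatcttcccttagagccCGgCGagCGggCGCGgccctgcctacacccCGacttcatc
LOC124902635: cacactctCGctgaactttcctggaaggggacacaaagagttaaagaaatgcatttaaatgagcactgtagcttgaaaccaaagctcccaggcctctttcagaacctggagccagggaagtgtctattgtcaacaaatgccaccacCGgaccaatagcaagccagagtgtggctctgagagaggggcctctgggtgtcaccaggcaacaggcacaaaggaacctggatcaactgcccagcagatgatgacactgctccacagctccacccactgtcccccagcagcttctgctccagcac
CASC18: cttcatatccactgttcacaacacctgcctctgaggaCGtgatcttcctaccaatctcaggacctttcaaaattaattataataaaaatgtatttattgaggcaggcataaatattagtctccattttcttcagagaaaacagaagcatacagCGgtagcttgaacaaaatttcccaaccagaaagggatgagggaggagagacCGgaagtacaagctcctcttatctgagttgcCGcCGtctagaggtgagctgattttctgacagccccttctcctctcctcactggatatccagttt
The LINC03124 promoter holds 20 CpGs, that of LINC01012 11 and that of THORLNC 32. The promoter of LOC105373480, in the 4 subconfluent lists, holds 19, and that of LOC124902635, in the 4 postconfluent lists, holds 2. CASC18, chosen because its GC content is nearest the median of unoccupied promoters, holds 5. Of 11 motifs searched, THORLNC has a GC box, an NRF1 motif and an ETS motif. LINC03124 has none, and LINC01012 and LOC124902635 have a CCAAT box each. LOC105373480 has a GC box, and the unoccupied CASC18 has a CCAAT box, an ETS motif and a GATA motif.

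Over all 4083 lncRNA promoters that lie at least 50 kb from protein-coding genes, occupied promoters were richer in G and C bases. Of these promoters, 289 (7.08%) overlapped a member in at least 1 list and 131 (3.21%) in all 8. The median share of G and C bases was 60% in the 131, 52.0% in the 158 held by 1 to 7 lists and 43.0% in the 3794 held by none. The median ratio of observed to expected CpGs was 0.623, 0.262 and 0.192. Among promoters under 40% G and C, 2 of 1331 (0.150%) were in all 8 lists, against 22 of 79 (27.8%) from 70% upward. For comparison, the 11208 protein-coding promoters in all 8 lists had a median of 66.0% G and C and a CpG ratio of 0.849. Motif letters were searched on both strands. The GC box (GGGCGG) stood in 54.2% of the 131, in 19.0% of the 158, in 8.01% of those in no list and in 44.95% of all 35116 RefSeq promoters. The TATA box (TATAAA) ran the other way, at 6.11%, 10.8% and 23.5%, with 11.5% over all promoters. The GATA letters AGATAA stood in 12.2% of the 131, in 20.3% of those in no list and in 10.3% of all promoters. These letters overlap with base composition: a GC box is itself G and C, and a TATA box is not. No test was run on them, and the part of base composition in the precipitation or in peak calling was not tested.

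**Figure D1:**
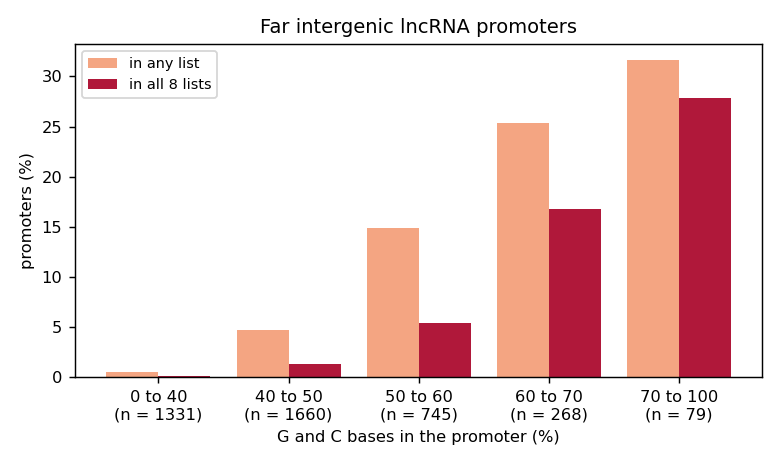
Share of far intergenic lncRNA promoters (y axis, %) that overlapped an interval in any list or in all 8 lists, by the percentage of G and C bases in the promoter (x axis, number of promoters per bin below it). The share in all 8 lists goes from 0.150% in the lowest bin to 27.8% in the highest.

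Far intergenic regions recurred less than the other classes. Of the 6073 members, 2402 (39.6%) were in 1 list, 887 in 2, 538 in 3, 399 in 4, 314 in 5, 310 in 6, 314 in 7 and 909 (15.0%) in all 8. The share in all 8 was 20.9% for regions at 1 to 50 kb, 22.4% for intragenic regions and 68.1% for regions at gene ends. Members were also narrower, with a median of 537 bp (quartiles 338 and 869 bp) against 640, 629 and 1255 bp, and 19 of them reached 3 kb. Recurrence, width and strength went together. Strength is given as a percentile, the rank of an interval's fold enrichment within its own list, averaged over the lists that hold the region. From members in 1 list to members in all 8, the median width went from 324.5 to 1216 bp and the median strength from the 17.9th to the 55.9th percentile. A region spans the merged intervals of its lists, so its width can grow with their number by construction. The class medians of region width carry the same limit. Width rose likewise in regions at 1 to 50 kb (332 to 1381 bp) and in intragenic regions (331 to 1293 bp). In the 909 members of all 8 lists, the summits of the 8 intervals spread over a median of 221 bp, and in 44.99% of them over at most 200 bp.

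**Figure D2:**
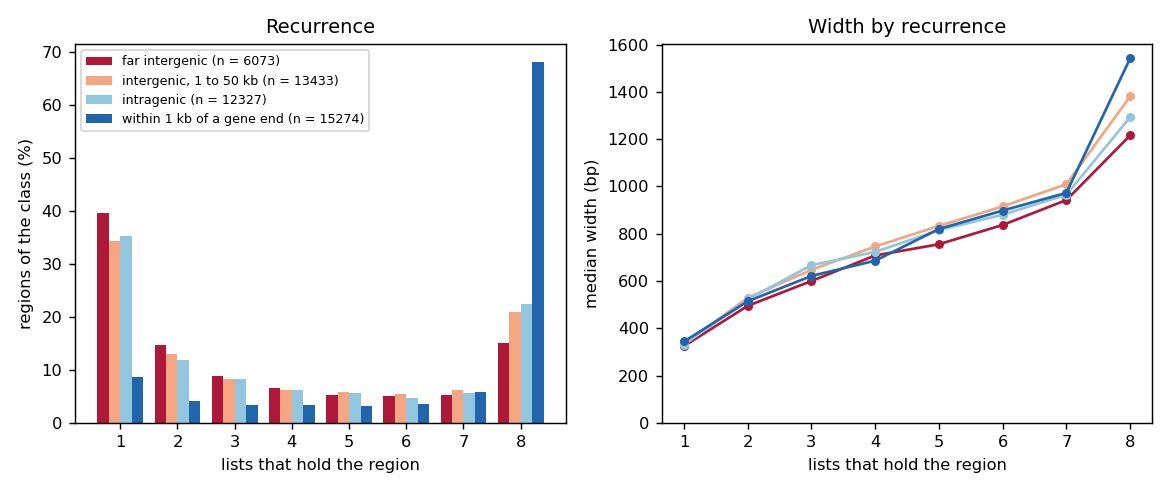
Left, percentage of the regions of each class (y axis) held by 1 to 8 lists (x axis). Right, median region width in bp by the number of lists. Of the far intergenic regions, 39.6% are in 1 list and 15.0% in all 8, against 8.64% and 68.1% of the regions at gene ends.

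The same held within each list. Far intergenic intervals made up 7.13% to 10.2% of a list (2182 to 3133 intervals per list). In the order Exp1 and Exp2, the share of these intervals that fell in a region of all 8 lists was 36.3% and 38.7% in Z1 Sc, 34.7% and 34.0% in Z1 Pc, 30.7% and 50.2% in Z2 Sc, and 35.5% and 45.2% in Z2 Pc. The highest shares came from Z2 Sc Exp2 and Z2 Pc Exp2, the lists with the fewest far intergenic intervals. The mean was 38.2% ± 6.45 (SD, n = 8) against 49.3% ± 4.57 for intragenic intervals, 11.1 percentage points apart, with far intergenic lower in 8 of 8 lists (2-sided exact sign-flip permutation test, p = 0.00781, Benjamini-Hochberg adjusted p = 0.00781, the smallest that 8 lists can give). Median strength was at the 31.5th ± 1.74 against the 37.7th ± 0.793 percentile and median width 525 ± 94.7 against 605 ± 113 bp (SD, n = 8). Both differed in the same direction in 8 of 8 lists, with the same exact permutation p of 0.00781. Against intergenic intervals at 1 to 50 kb the differences were smaller in recurrence and strength, at −7.98 points and −2.68 percentiles. In width the difference was −84.6 bp, beside −80.1 bp against intragenic intervals. Again each was below 0 in 8 of 8 lists (exact permutation p = 0.00781, adjusted over 9 tests 0.00781). Recurrence in 1 list is counted against the other 7, so the 8 values are not independent.

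**Figure D3:**
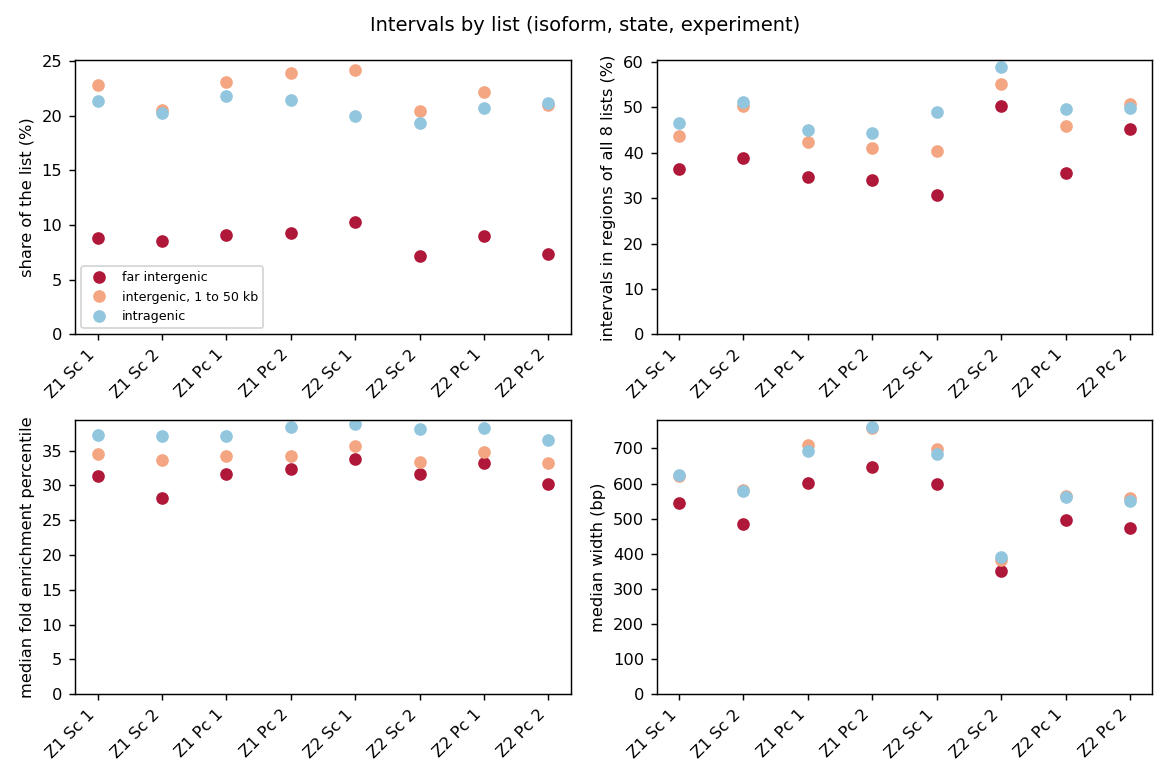
Values by list (x axis: isoform, state, experiment) for far intergenic, other intergenic and intragenic intervals: share of the list, share of intervals in a region of all 8 lists, median fold enrichment percentile, and median width in bp. Far intergenic intervals are the lowest of the 3 classes in each of the 4 panels and in each list.

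Pairs of lists also shared fewer members than other regions. The Jaccard index, the members in both lists divided by those in either, was 0.370 to 0.524 (28 pairs, median 0.461), against 0.643 to 0.732 for all other regions. Those other regions include the ones at gene ends, 68.1% of which were in all 8 lists. In regions at 1 to 50 kb and in intragenic regions it was 20.9% and 22.4%. No index is given for these classes alone. Pairs of the same group always cross Exp1 and Exp2, so kinds of pairs are set side by side only across experiments, with 4 pairs each. The median was 0.460 for the same group and 0.492 for the same state and different isoforms. It was 0.425 for the same isoform and different states, and 0.455 where both state and isoform differed. These pairs share lists, so no test was run on them.

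The strongest members, those with the highest mean percentile among the 909, stood at or inside noncoding genes, at a pseudogene or in stretches with no annotated gene. The first (chromosome 1, 148262736 to 148265314, 110 kb from NBPF11) spans TRQ-CTG4-1, a glutamine tRNA gene, and the U1-like pseudogene RNVU1-22. Its fold enrichments were 29.7 and 27.6 in Z1 Sc, 22.7 and 26.9 in Z1 Pc, 24.0 and 18.9 in Z2 Sc, and 18.3 and 19.2 in Z2 Pc. It ranked within the top 1% of all 8 lists. This stretch of chromosome 1 holds near-identical gene copies, and the sources used here do not say how reads that match several copies were placed. Next came the end of LINC03124, a lncRNA gene (chromosome 2, 131681685 to 131683425), with percentiles of 98.1 to 99.97 and fold enrichments of 15.6 to 22.9. A region with no annotated gene lay 55.5 kb from SLC1A3, a glutamate transporter gene, and 130.6 kb from NIPBL, the cohesin loader gene (chromosome 5, 36743827 to 36746137). Its percentiles ran from 96.3 to 99.8. The others were at the pseudogene TPM4P2 near EOMES, a T-box factor gene, between FBXO11 and FOXN2, at LINC01012, at the glutamate tRNA gene TRE-TTC2-2, at RNY5, between MSRB3 and HMGA2, and between NYAP2 and IRS1. RNY5 encodes a Y RNA, a small RNA that binds the Ro protein, and lies 56.4 kb from EZH2, which encodes the H3K27 methyltransferase. Its percentiles were 99.96 and 98.2 in Z1 Sc, 99.9 and 98.8 in Z1 Pc, 99.7 and 99.7 in Z2 Sc, and 99.5 and 91.98 in Z2 Pc. A second, wider member lay beside it, in 6 lists.

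The end of a noncoding gene was where members were strongest and most recurrent. Of the 6073 members, 908 (15.0%) overlapped the 1 kb on either side of an end of a noncoding gene, 1536 lay inside one and 3629 (59.8%) touched no annotated gene. The share in all 8 lists was 27.5% at noncoding gene ends, 13.1% inside noncoding genes and 12.6% with no annotated gene. Within lists, intervals at noncoding gene ends had a median percentile of 41.9 ± 1.85 against 29.9 ± 2.19 with no annotated gene (SD, n = 8), 12.05 higher. Their median width was 625.4 ± 118 against 509 ± 97.3 bp. The share in a region of all 8 lists was 53.9% ± 5.51 against 33.9% ± 6.499. All 3 were higher in 8 of 8 lists (2-sided exact sign-flip permutation test, p = 0.00781, adjusted p = 0.00781). The lists share regions, and those in all 8 lists are the same in each, so the 8 values are not independent. The split by noncoding annotation was chosen after the data had been seen.

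By kind of gene, 13 of the 30 members at tRNA genes were in all 8 lists, as were 39 of 77 at transcribed pseudogenes, 188 of 688 at lncRNA genes, 22 of 112 at other pseudogenes and 8 of 12 at miRNA genes. A member can count under several kinds. Counted the other way, 31 of the 120 tRNA genes that lie far from protein-coding genes (25.8%) were in at least 1 list, as were 45 of 274 transcribed pseudogenes (16.4%), 535 of 5428 lncRNA genes (9.86%), 12 of 301 miRNA genes (3.99%), 98 of 4545 other pseudogenes (2.16%) and 1 of 236 snoRNA genes. Over all far noncoding genes it was 757 of 11435 (6.62%). Transfer RNA genes are read by RNA polymerase III from promoters inside the gene. Besides the leading pair, members at tRNA genes in all 8 lists included TRA-AGC2-1, TRT-TGT2-1 and TRI-TAT2-2, with mean percentiles of 97.2, 93.9 and 90.8. On chromosome 6 those at TRQ-CTG2-1, TRV-AAC1-5, TRL-CAA3-1 and TRI-AAT2-1, all between ZNF184 and the histone gene H2BC13, had 70.2, 70.1, 63.6 and 60.5. The last had percentiles from 11.6 in Z2 Pc Exp2 to 86.0 in Z2 Sc Exp1, so lists differed widely there. Among transcribed pseudogenes SUZ12P1, a copy of the Polycomb gene SUZ12, led with 95.4, followed by FRG1BP with 95.0.

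The miRNA genes at members in all 8 lists included MIR148A, a miRNA gene of the intestinal epithelium and liver. Mature sequences in RefSeq (GRCh38.p14) matched 8 of the 10 miRNA genes looked up. For the 3 strongest of the matched members and MIR148A the sequences follow, with the seed (bases 2 to 8) in capitals. Their seeds all differ.
hsa-miR-6077: gGGAAGAGcuguacggccuuc
hsa-miR-5087: gGGUUUGUagcuuugcuggcaug
hsa-miR-6089: gGAGGCCGggguggggcggggcgg
hsa-miR-148a-3p: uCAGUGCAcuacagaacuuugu
The member over MIR148A (chromosome 7, 25949639 to 25951322, 200.9 kb from NFE2L3) had percentiles of 55.1 and 64.1 in Z1 Sc, 44.2 and 52.3 in Z1 Pc, 21.6 and 49.8 in Z2 Sc, and 56.6 and 44.5 in Z2 Pc. The states and isoforms overlapped. MIR6077 and MIR5087, between NBPF11 and PPIAL4G on chromosome 1, had mean percentiles of 91.6 and 88.8, and MIR6089, in the pseudoautosomal region of chromosome X, 80.3.

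**Figure D4:**
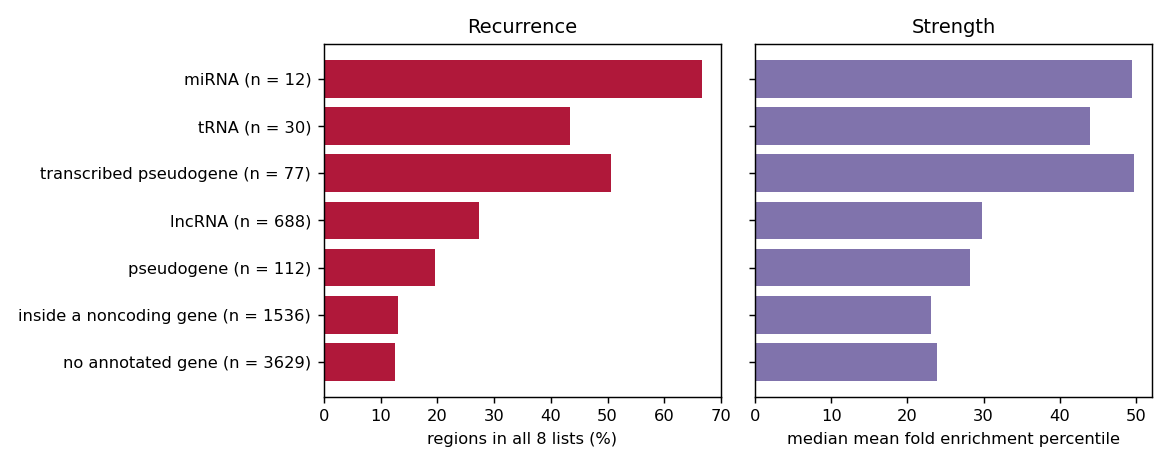
Members by the annotated noncoding gene they touch (y axis, number of members): percentage in all 8 lists (left) and median of the mean fold enrichment percentile (right). Regions with no annotated gene are in all 8 lists in 12.6% of cases, those at lncRNA ends in 27.3%, at transcribed pseudogenes in 50.6% and at tRNA genes in 43.3%.

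The widest member covered 4907 bp at LINC02952, between MYEOV and CCND1, the cyclin D1 gene (chromosome 11, 69434197 to 69439103), with percentiles of 19.4 to 69.8. The next were 4706 bp at LOC105373610, between HS6ST1 and RAB6C, and 4506 bp on chromosome 21. Width did not require strength: the fourth, 3978 bp between SULF2 and PREX1 (chromosome 20, 48123069 to 48127046), had a mean percentile of 14.4. The median distance to a protein-coding gene was 107 kb. Members at 50 to 100 kb (2782) were in all 8 lists in 17.1% of cases, those at 100 to 200 kb in 13.8%, at 200 to 500 kb in 13.0%, at 500 to 1000 kb in 9.75% and beyond in 10.3% (7 of 68). The farthest lay 3430 kb from OR11H1 on chromosome 22, at LOC107987323, and was in all 8 lists at percentiles of 4.16 to 31.0. Another in all 8 lists, with no annotated gene, was 2024.5 kb from its nearest gene on chromosome 18 (39799191 to 39800517), at a mean percentile of 63.3. At the 50 kb threshold, the nearest members inside lay beside MAP1LC3B2 (8 lists, mean percentile 72.5), TBC1D2B (8 lists, 81.6) and STK24 (1 list, 42.0). The nearest outside lay between PTPRC and NR5A2 (4 lists, 28.1), between TNS3 and PKD1L1 (1 list, 16.1) and between CCDC190 and RGS4 (1 list, 33.1).

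Members were not spread evenly. The 2929 gaps of at least 0.1 Mb between protein-coding genes held 5.08 members per Mb of usable length, the part at least 50 kb from both genes, and 1365 of them (46.6%) held any. Density was lower in longer gaps, from 19.2 per Mb in gaps of 0.1 to 0.2 Mb to 0.791 per Mb in gaps of 2 Mb or more, and 103 of the 331 gaps of 1 Mb or more held none. By chromosome, density was highest on chromosome 20, at 17.6 per Mb, and lowest among those with members on chromosome 19, at 0.894. Members lay close to each other, with 59.7% within 12.5 kb of another member. The most members in a gap were 75 between IRF2BP2 and TOMM20 on chromosome 1 (16 in all 8 lists), 69 between ZNF217 and BCAS1 on chromosome 20 (6 in all 8) and 53 each between CEBPB and PTPN1 on chromosome 20 (7 in all 8) and between RPS24 and ZMIZ1 on chromosome 10 (4 in all 8). ZNF217 encodes a zinc finger factor and CEBPB a leucine zipper factor. Between ZNF217 and BCAS1, 58 members formed 1 cluster of 175 kb in which neighbours lay within 12.5 kb. The first 3 of these stretches ranked low by fold enrichment. Their median fold enrichment percentile in the 8 lists was 1.71 to 12.1 between ZNF217 and BCAS1, 1.81 to 7.44 between CEBPB and PTPN1 and 8.79 to 13.3 between IRF2BP2 and TOMM20, against 28.2 to 33.7 over all far intergenic intervals. Between RPS24 and ZMIZ1 it was 14.9 to 43.3, which overlaps that range. Ranked by −log10 p, the medians of the first 3 overlapped that of all, at 14.4 to 35.6, 19.4 to 39.0 and 21.3 to 35.8, against 28.2 to 32.5 over all far intergenic intervals. Each list held 17 to 42, 17 to 34 and 30 to 46 of their intervals. With lists cut by fold enrichment instead of p, the members there numbered 35, 32 and 60. Far intergenic intervals of chromosome 20 as a whole had median percentiles of 10.7 to 15.4. DNA copy number in this line was not measured here, and its part was not tested.

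Flanking genes were counted from 5 lists of genes, so that each count can be read against all gaps. Of the 21 gaps beside intestinal transcription factors, 18 held a member, at 18.8 members per Mb, led by GATA6 with 44 members (8 in all 8 lists), KLF4 with 23 and FOXA2 with 22. These gaps held 137 members, of which 30 between MIB1 and GATA6 formed 1 cluster of 135 kb. That cluster ranked low, at a mean percentile of 12.9, so the density leans in part on 1 stretch. Gaps beside signalling genes held members in 49 of 64 cases, at 10.1 per Mb, with INHBB, an activin subunit gene (39 members), FGFR2, an FGF receptor gene (27), and BAMBI, a BMP pseudoreceptor gene (25). For SOX, forkhead, T-box and other developmental factors it was 57 of 92, at 9.19 per Mb, led by MYCN with 72 and GLI2 with 46. For homeobox factors it was 44 of 72, at 5.19 per Mb, led by MSX2 with 33. For neuronal adhesion and channel genes it was 38 of 77, at 0.952 per Mb. Their gaps were also the longest, with a median usable length of 1.07 Mb against 0.119 Mb beside intestinal factors and 0.133 Mb over all gaps. Since density was lower in longer gaps of any kind, the lists cannot be compared with each other from these values alone. KLF5, another intestinal factor gene, was beside 12 members, 0 of them in all 8 lists. A member counts under both of its flanking genes, so the gene lists share members. The 39 members between INHBB and GLI2 stand in the counts of both genes.

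The first comparison of groups asks whether far intergenic intervals made up more or less of a list after confluence. Their share did not differ beyond the spread between libraries. All lists were cut to the same length, so the share cannot tell whether more or fewer regions were occupied. The share of a list was 8.79% and 8.50% in Z1 Sc, 9.08% and 9.29% in Z1 Pc, 10.2% and 7.13% in Z2 Sc, and 9.01% and 7.39% in Z2 Pc (Exp1 and Exp2). The mean was 8.69% ± 0.874 in the 4 postconfluent and 8.67% ± 1.27 in the 4 subconfluent lists (SD), 0.0278 points apart (2-sided exact permutation test, p = 1, adjusted p = 1, smallest possible 0.0286). Between lists with the same identifier, the postconfluent list was higher by 0.284 and 0.791 points for H2A.Z.1 in Exp1 and Exp2 and by 0.265 for H2A.Z.2 in Exp2, and lower for H2A.Z.2 in Exp1, at −1.23. The Exp1 and Exp2 lists of Z2 Sc differed more than any of these.

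In all 4 postconfluent and no subconfluent lists were 25 members, and 15 showed the reverse. These 40 are 0.659% of members. Over all 47107 regions 232 (0.492%) and 111 (0.236%) did, together 343 (0.728%), so the share of members is near the background. Of the 399 members in exactly 4 lists, 10.0% had 1 of these patterns, against 13.7% of the 2502 regions in 4 lists. Most of the 40 did not lack an interval altogether in the other state. In the whole lists before the cut, 24 of the 25 and 14 of the 15 had an interval in at least 1 list of the other state. The exceptions lie between FMO4 and PRRC2C (postconfluent only) and between STC2 and BOD1 (subconfluent only). The balance of directions depended on list length. It was 66 after against 5 before confluence in whole lists, 8 against 8 with lists halved in length, and 2 against 21 with lists of equal covered length. Over all regions it was 437 against 41, 78 against 71 and 12 against 177. Without Z2 Sc Exp2 it was 28 against 56 members and 296 against 272 of all regions, and without Z1 Sc Exp2 32 against 34 and 326 against 197.

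Among the postconfluent regions the strongest lay 59.0 kb from SMARCAD1, a chromatin remodeller gene, and 317 kb from ATOH1, the factor that specifies secretory cells of the gut (chromosome 4, 94147847 to 94148585, at the lncRNA gene LOC124900734). Its percentiles were 44.3 and 71.2 in Z1 Pc and 72.8 and 53.4 in Z2 Pc, with fold enrichments of 6.56 to 11.2, and whole subconfluent lists held it in 2 of 4. A region beside TRIM43 on chromosome 2 had 72.4, 65.9, 64.4 and 17.9 in the same order. Others lay between C4orf33 and PCDH10 (45.5 on average), MDGA1 and ZFAND3 (44.5), AKIRIN2 and SPACA1 (44.1), HTR5A and INSIG1 (42.1), NSUN3 and EPHA6 (41.4), SMOC2 and THBS2 (41.2), F3 and SLC44A3 (35.5) and CD2 and PTGFRN (34.5). F3 encodes tissue factor and INSIG1 a brake on cholesterol synthesis. Of the dense stretches above, CEBPB to PTPN1 and IRF2BP2 to TOMM20 each held 1 postconfluent region, at mean percentiles of 5.68 and 26.1. Outside chromosome 8 the subconfluent regions were led by one 147 kb from DLL1, a Notch ligand gene (chromosome 6, 170133810 to 170134712), with percentiles of 8.97 and 72.3 in Z1 Sc and 40.2 and 52.2 in Z2 Sc. They also lay at LOC105373480 between TMEM18 and SNTG2 (34.9), between VEGFA, the angiogenic factor gene, and MRPL14 (33.2), and between IRF8 and FOXF1, an interferon regulatory factor and a forkhead factor gene (31.7). The last had an interval in all 8 whole lists. Regions on chromosome 8 are counted and not named, here and below.

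**Figure D5:**
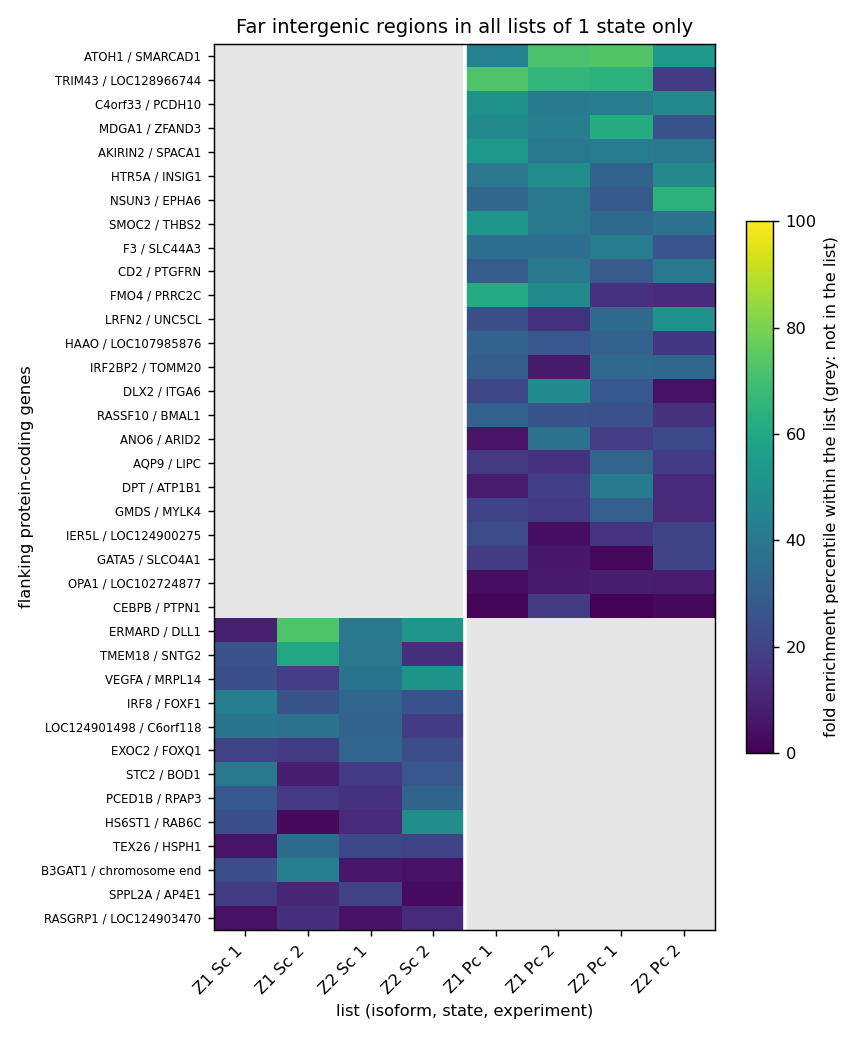
Fold enrichment percentile within each list (colour, 0 to 100) of 24 members in all 4 postconfluent lists only and 13 in all 4 subconfluent lists only (y axis, flanking protein-coding genes), by list (x axis). Grey means that the cut list does not hold the region, and all shown regions have mean percentiles of 5.68 to 60.4, so none ranks near the top of its lists.

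Within isoforms, 283 members (4.66%) were in both Z1 Pc and neither Z1 Sc list and 161 (2.65%) the reverse, against 3.69% and 2.05% of all regions. For H2A.Z.2 the counts were 129 (2.12%) after and 159 (2.62%) before, against 2.24% and 1.83% of all regions. The strongest H2A.Z.1 region after confluence lay 117 kb from MAP3K1, a kinase gene, with 66.7 and 58.9 in the Z1 Pc lists, and it was also in the Exp1 lists of Z2 Sc and Z2 Pc. Before confluence it was at LINC01883, beside ATL2, with 68.4 and 24.7 in Z1 Sc, and it was in all 4 H2A.Z.2 lists. For H2A.Z.2 the ATOH1 region led after confluence. Before confluence a region at ZNRF2P2 and DPY19L2P3 led, with 61.6 and 56.4 in Z2 Sc. In whole lists of the other state, 84 of the 283, 20 of the 161, 25 of the 129 and 62 of the 159 had no interval. This was not counted over all regions. Whole lists also differed in length, at 46636 and 66522 intervals in Z1 Sc against 56427 and 79425 in Z1 Pc. These counts therefore cannot be read as differences between the states. Whether the changes differed between the isoforms was not tested for presence or absence.

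The rank of the 909 members in all 8 lists was compared with limma on normal scores of fold enrichment, fitted over all 16877 regions of all 8 lists. By state 0 members and 0 of all regions (0%) passed at a limma adjusted p of 0.05. At an unadjusted p under 0.05 there were 106 members (11.7%), 36 higher and 70 lower after confluence. Of all regions there were 1671 (9.90%), 814 higher and 857 lower. Within H2A.Z.1 alone 38 members were higher and 41 lower, beside 569 and 555 of all regions. Within H2A.Z.2 alone 17 members were higher and 57 lower, beside 494 and 549 of all regions. The median difference of score, postconfluent minus subconfluent, was −0.06 over members and 0.00 over all regions. In simulated data of this size, 117 of 200 regions (58.5%) shifted by 2 score units were recovered and 0 of 200 shifted by 1, so small shifts could not be detected. The member nearest to a call was at PCSEAT, a lncRNA gene, 75.2 kb from TMPRSS2, which encodes a membrane protease, and 155 kb from RIPK4, a kinase gene (chromosome 21, 41583325 to 41584050). Its percentiles were 78.2 and 92.5 in Z1 Sc and 97.7 and 64.3 in Z2 Sc, against 21.0 and 22.1 in Z1 Pc and 30.3 and 36.5 in Z2 Pc. All 4 subconfluent lists were above all 4 postconfluent lists, and the score difference was −2.13 (SE 0.391, limma adjusted p = 0.0783). Without Z2 Sc Exp2 it passed, at −2.59 (limma adjusted p = 0.0224). With the experiment as a block its limma adjusted p was 0.0569. A region between BARX2 and TMEM45B followed, with 87.7, 94.8, 83.9 and 71.6 before and 44.0, 25.6, 56.6 and 45.4 after confluence (−1.61, SE 0.332, limma adjusted p = 0.105). Higher after confluence was a region 68.8 kb from PODXL, the podocalyxin gene, with 68.4, 23.9, 62.4 and 34.8 before and 81.6, 91.6, 83.2 and 87.7 after (1.45, SE 0.366, limma adjusted p = 0.179). Again the states did not overlap in either region.

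The second comparison asks whether the isoforms differ in far intergenic regions. The share was 8.44% ± 1.46 for H2A.Z.2 and 8.92% ± 0.344 for H2A.Z.1 (SD, n = 4 each), −0.474 points apart (2-sided exact permutation test, p = 0.543, adjusted p = 1). Within Exp2, where all 4 lists share 1 identifier, H2A.Z.2 was lower by both pairs, at −1.37 points in subconfluent and −1.90 in postconfluent cells. In Exp1, where the isoforms have different identifiers, the pairs gave 1.44 and −0.0686. In all 4 H2A.Z.2 and no H2A.Z.1 lists was 1 member (0.0165%, against 0.0149% of all regions), 342 kb from ADARB2. The reverse held for 4 (0.0659%, against 0.0977%), and both directions together for 5 (0.0823%, against 0.113%). Among the 4 were regions between AQP9 and LIPC (28.3 on average) and between PAX1 and FOXA2 (14.0). All 5 had an interval in some whole list of the other isoform. Within states, 97 members (1.60%) were in both Z2 Sc and neither Z1 Sc list and 107 (1.76%) the reverse, beside 1.02% and 1.84% of all regions. After confluence it was 47 (0.774%) and 188 (3.10%), beside 0.677% and 2.30%. Within Exp2 alone, 44 members (0.725%) were in both H2A.Z.2 lists only and 174 (2.87%) in both H2A.Z.1 lists only, beside 0.826% and 2.11% of all regions. By limma 0 members and 0 of all regions (0%) passed by isoform, and 49 members (5.39%) beside 640 of all regions (3.79%) had an unadjusted p under 0.05. The region with the largest shift lay between BARHL2 and ZNF644, with 93.5, 93.9, 90.2 and 93.1 in H2A.Z.1 and 39.7, 65.8, 46.9 and 81.9 in H2A.Z.2 lists (−1.49, SE 0.357, limma adjusted p = 0.815). In the other direction was the wide region between SULF2 and PREX1, with 3.05, 3.40, 0.770 and 0.652 against 30.7, 19.7, 11.8 and 44.9 (1.37, SE 0.334, limma adjusted p = 0.875). The isoforms did not overlap in either region. The difference of the state effect between isoforms passed in 0 members and 0 of all regions by limma, with 31 members (3.41%) beside 3.09% of all regions at an unadjusted p under 0.05. Within H2A.Z.1 and H2A.Z.2 alone, limma passed 0 members by state (0% of all regions each), with 79 (8.69%, beside 6.66% of all regions) and 74 (8.14%, beside 6.18%) at an unadjusted p under 0.05. Within subconfluent and postconfluent cells alone it passed 0 by isoform, with 45 (4.95%, beside 3.74%) and 36 (3.96%, beside 3.43%).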

How the data were processed

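The deposited peak lists of the 8 Flag precipitations were used, 1 per library and none pooled. The submitters' processing notes name hg38, BWA and deepTools. The sources used here name no peak caller, control or spike-in scaling. The deposited fold enrichment is a ratio, the authors' p and q are on a −log10 scale, and the last deposited column is the summit position. These values were used only within a list, for ranks. Read depth cannot be derived from peak lists, so no counting interval is given. Lists were cut to the length of the shortest on chromosomes 1 to 22, X and Y, merged where they overlapped or touched, and placed against 20033 protein-coding genes. Coordinates are 1-based. The other 9 samples (total H2A.Z, input) were not analysed here. The members and gene lists were chosen with earlier results of these data known. Named members were the strongest by mean percentile in each pattern, kind of gene or rank, the widest, the farthest, and the 5 largest limma shifts each way, none on chromosome 8. A few items that these rules name are not reported here. Tests were exact permutation tests (enumerated with numpy 2.4.6) and limma 3.58.1 in R 4.3.3 (4 group means, Benjamini-Hochberg over 16877 regions), tested on simulated data. Normal scores were computed with scipy 1.17.1. Same-numbered libraries of different groups had correlations of deviations from −0.0376 to 0.195, so the experiment number was not taken as pairing. The highest, 0.195 for Z1 Sc with Z1 Pc and 0.157 for Z2 Sc with Z2 Pc, were between Exp1 lists that share an identifier. The other pairs reached at most 0.0777. The identifier was not used as a block. Alternatives covered list length, ranking, distance, gene set, joining and leaving out libraries.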

Additional observations from a re-analysis of the deposited data

Results flagged for a closer look

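In sets of 4 lists or of all 8, 6 of the 45 sets checked had an end value far from its neighbours by Dixon's criterion, and chance flags about 1 in 20. The sets overlap, so they are not independent. Z2 Pc Exp2 stood apart among the postconfluent lists in 3 measures: 7.39% of its intervals were far intergenic (next 9.01%), 45.2% of these were in all 8 lists (next 35.5%), and 21.7% were at noncoding gene ends (next 19.4%). Z1 Sc Exp2 stood apart among the H2A.Z.1 lists in 2 measures: its difference to intragenic intervals was −12.5 points in recurrence (next −10.4) and −8.81 in median percentile (next −5.96). The latter also stood apart among all 8 lists, at −8.81 (next −6.48).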

How the results depend on the processing

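Far intergenic intervals kept their lower recurrence, strength and width relative to intragenic intervals, and their higher strength and recurrence at noncoding gene ends, in every setting run (list length, ranking, distance, joining and leaving out each list; the first 3 also with all annotated genes). The sizes moved: the strength difference of −6.14 was −4.18 with whole lists, −2.35 with lists halved in length, −3.39 with equal covered length and −3.23 with all annotated genes, and the width difference of −80.1 bp was −41.6 with whole lists and −50.6 at 20 kb. The number of members was 20538 with whole lists, 1489 with lists halved in length, 2467 with equal covered length, 10730 at 20 kb, 3291 at 100 kb and 694 when all annotated genes were excluded. The difference in share by state turned negative with lists halved in length (−0.0948 points), equal covered length (−0.869), ranking by fold enrichment (−0.0147), 100 kb (−0.0474) and all annotated genes (−0.0368), and ran from −0.484 to 0.551 without single lists. By isoform it was −2.98 with whole lists, turned positive with lists halved in length (0.0556) and equal covered length (1.07), and ran from −1.07 to −0.0362 without single lists. None of these passed the exact permutation test. The cause was not tested. The alternatives for noncoding gene ends were chosen after seeing the data. Members in all lists of 1 state only numbered 71, 16, 23, 82, 20 and 5 with whole lists, halved lists, equal covered length, 20 kb, 100 kb and all annotated genes, and by isoform 55, 2, 4, 9, 3 and 1. The share by state was 0.346%, 1.07% and 0.932% of members beside 0.417%, 0.696% and 0.671% of all regions in the first 3 settings, so members lay below all regions with whole lists and above them in the other 2. In the last 3 settings it was 0.764%, 0.608% and 0.720% of members beside 0.728% of all regions. By isoform the share in the first 3 was 0.268%, 0.134% and 0.162% of members beside 0.246%, 0.0841% and 0.167% of all regions. In the last 3 it was 0.0839%, 0.0912% and 0.144% beside 0.113%. Leaving out any 1 of the 8 lists asks for presence in fewer lists and raised the counts to 63 to 87 by state (1.09% to 1.47% of members, 1.06% to 1.43% of all regions) and 10 to 23 by isoform (0.173% to 0.390%, and 0.240% to 0.351%). By limma, members called by state numbered 0 to 1 without single lists. With the replicate block (experiment), limma called 0 members by state and isoform. By state it called 2 of all regions, against 0 without the block. The share differences stayed at 0.0278 and −0.474, and neither passed. Other settings also called regions by state, with 0 members among them. These were 9 regions when ranked by −log10 p, 7 with whole lists and 1 with intervals up to 500 bp apart joined. A peak list holds only what passed the authors' threshold, so an absent region may hold weaker signal.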
